A study of Mus musculus with 24 samples.

Results

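The genes described are 5 STAT transcription factors, *Stat3*, *Stat4*, *Stat5a*, *Stat5b* and *Stat6*, and 4 genes of the SOCS family of feedback inhibitors, *Socs1*, *Socs2*, *Socs3* and *Cish*. They were chosen by symbol, as the rows of the deposited table whose Ensembl identifiers carry these names in GENCODE M39, which gave 9 of 17464 genes. The measurements are bulk RNA-seq values of regulatory T (Treg) cells sorted from the spleens of 4 young (2 months) and 4 old (26 months) mice, all of the genotype WT C57BL/6JRccHsd and with no treatment named. Resting Treg cells (rTreg) were gated by surface markers that included absence of CD44, activated Treg cells (aTreg) by markers that included CD44, and the third subset (kTreg) as KLRG1+. Each subset of each mouse gave 1 library, 24 in all in 6 groups of 4, and the 3 subsets of a mouse carry its replicate number. The subsets are therefore gates of a cell sorter and not clonal populations, and the sex of the mice behind these libraries is not given in the sources used here.

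STAT proteins lie latent in the cytoplasm until a cytokine binds its receptor, whose JAK kinases phosphorylate them, after which they dimerize, enter the nucleus and switch on target genes. The common gamma chain cytokines IL-2, IL-7 and IL-15 act mainly through STAT5, on which Treg cells depend for *Foxp3* expression and survival, whereas IL-6, IL-21, IL-23 and IL-10 use STAT3, IL-12 uses STAT4 and IL-4 uses STAT6. Among the targets of STAT proteins are the SOCS genes themselves, whose products bind the receptors or the JAK kinases and shut the signal off, so that their mRNA is often read as a trace of recent cytokine signaling. Phosphorylation is not seen by RNA-seq, and the values below are mRNA levels.

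The libraries held 15045747 to 29521942 reads on the genes of the table. Values are given as normalized reads, the reads of a gene divided by 1 size factor per library, and 1 read was worth 0.694 to 1.32 normalized reads, so that the lowest value of the 9 genes, 1012, rests on about as many reads. The sorting marker of the kTreg gate followed it, and *Klrg1* was at 16559 or more in all kTreg libraries and at 357.5 or less in all others. *Foxp3*, the defining factor of Treg cells, ranged from 13151 to 37793, except in replicate 2 of the old aTreg cells, where it stood at 5079.5. Replicate 4 of the young kTreg cells had 4913 genes at 0, against 419 to 2756 in the other libraries. Among the latter, the old rTreg libraries had 1855, 1215, 2642 and 2756, and those of the other groups 419 to 1241. All comparisons with old rTreg cells use these libraries, and the part of their missing genes in the differences was not tested. The sum of 5 macrophage and monocyte markers, all 5 above 0 in at least 1 library of each group, was 10076 to 26208 in old rTreg cells, 565 to 8060 in young rTreg cells, 52 to 2816 in young aTreg cells, 226 to 324 in old aTreg cells and 1912 to 2805 in old kTreg cells, while in young kTreg cells it was 0 to 817 in 3 libraries and 19727 in replicate 2. The libraries of young mouse 2 also stood out for the sum of 5 B cell markers. It was 15202 in rTreg, 8260 in aTreg and 6664 in kTreg cells, against 868 to 2064 in the other young libraries. Its rTreg library had an erythroid marker sum of 6656.5 and a CD8 T cell marker sum of 2184.5. In bulk samples, fewer cells of a type and less RNA per cell cannot be told apart.

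All 9 genes were measured well above the filter of 10 normalized reads in 4 libraries, and their median values lay above those of 82.2% to 97.9% of the tested genes. Per kilobase of annotated exon, the medians over the 24 libraries were 1165 normalized reads for *Cish*, 1092 for *Stat6*, 926 for *Socs3*, 754 for *Stat3*, 705 for *Stat5b*, 682 for *Socs1*, 352 for *Stat4*, 321 for *Stat5a* and 108 for *Socs2*. *Cish* and *Stat6* headed this scale and *Socs2* closed it. The length is the union of all annotated exons, 15258 bases for *Socs2* and 3383 bases for *Socs1*, so a gene with long rare isoforms is placed too low. Over the libraries, the highest value was 1.84 times the lowest for *Stat3*, 1.96 times for *Stat5b* and 2.09 times for *Socs1*, and 5.38 times for *Socs3*, which varied the most of the 9.

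**Figure D1:**
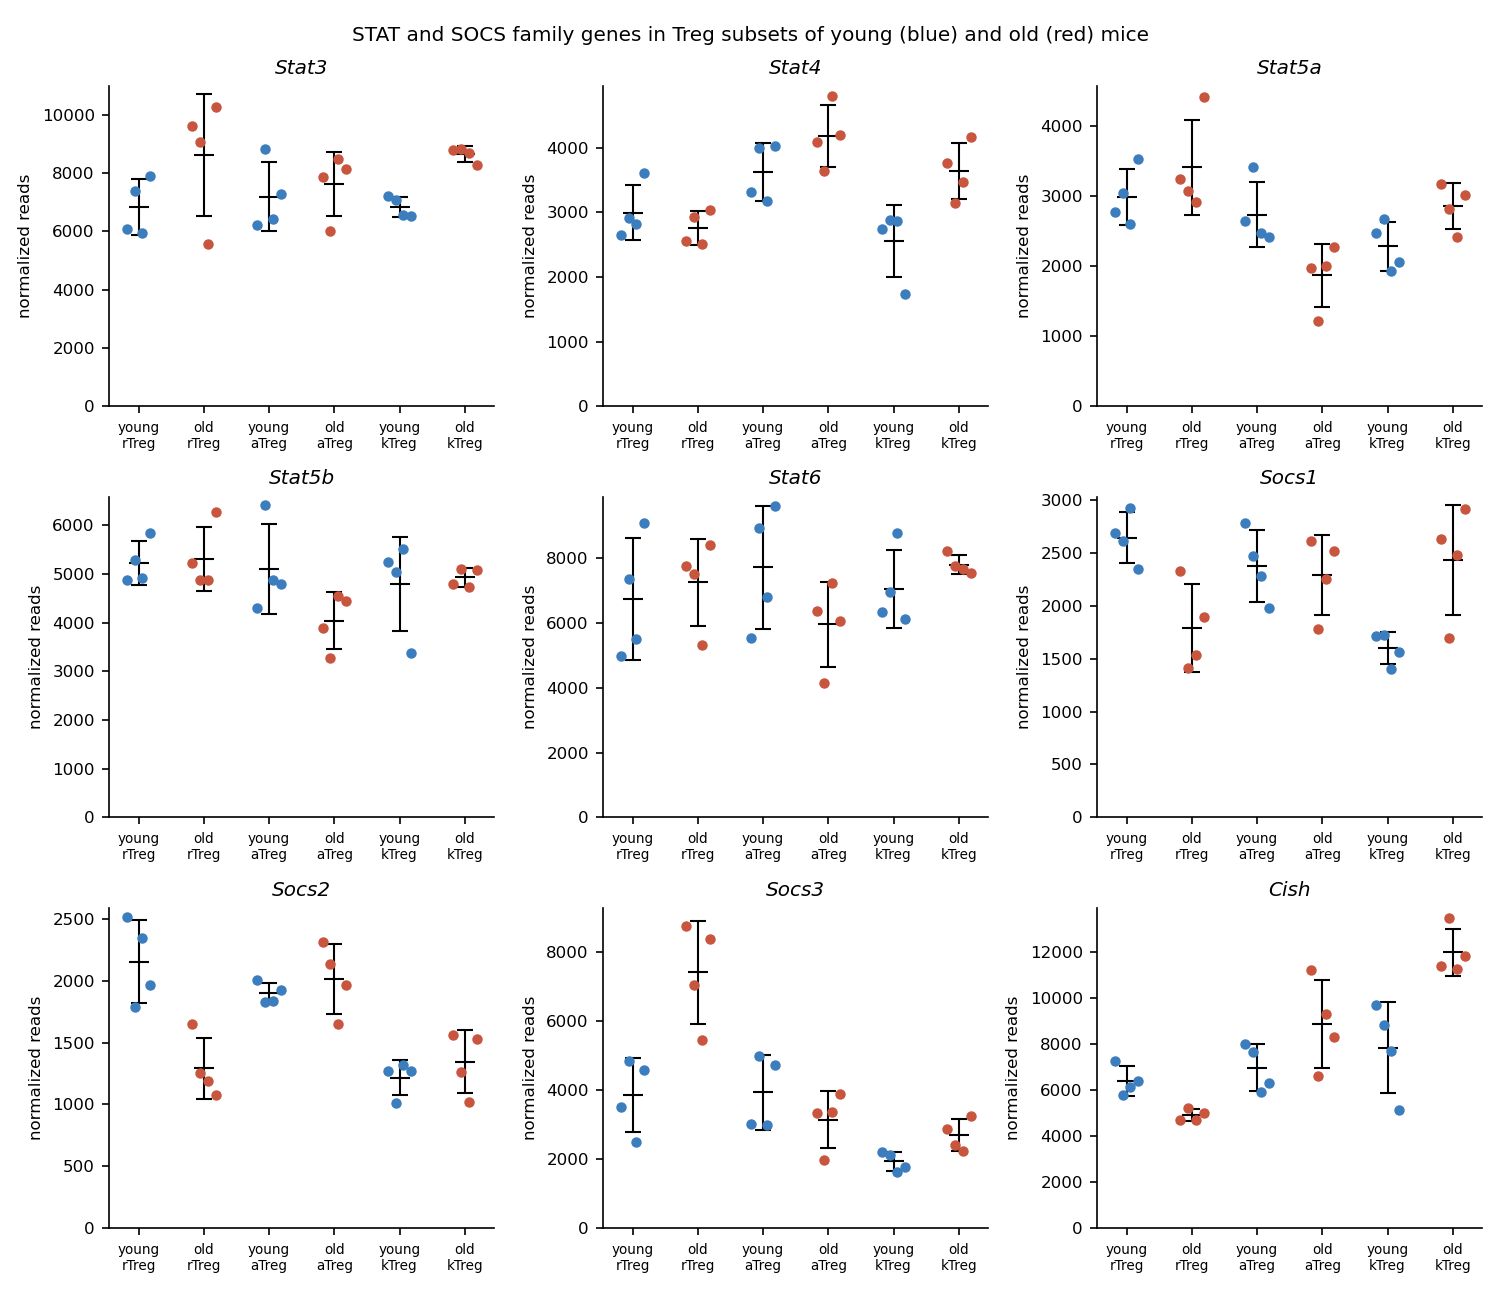
Normalized reads (vertical axes, from 0) of the 9 genes in each library, by subset and age. Points are libraries, blue for young and red for old mice, and black bars are the mean ± SD of 4. *Cish* runs highest in old kTreg cells, with all 4 libraries between 11253 and 13460.3, and *Socs3* in old rTreg cells, between 5447 and 8769.

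The first question was whether the subsets differ in these genes, with both ages weighted equally and 8 libraries on each side. A gene was called where its adjusted p was under 0.05 and it differed by more than 1.5-fold, which is 0.58 on the log2 scale, in limma's test over 16630 genes. Between kTreg and aTreg cells, *Socs2* and *Socs3* were lower in kTreg cells, 2 of 9 genes, where 7.39% of all tested genes were called. Between kTreg and rTreg cells, *Cish* was higher and *Socs3* lower in kTreg cells, 2 of 9 against 15.5% of all genes. Between aTreg and rTreg cells *Socs3* was lower in aTreg cells, 1 of 9 against 8.01%. No STAT gene was called between subsets, and *Stat3*, *Stat5b* and *Stat6* had log2 differences between -0.22 and 0.15 in the 3 comparisons. The median log2 difference of the 9 genes was 0.07, -0.12 and -0.04 in the 3 comparisons in this order, beside -0.08, -0.01 and 0.06 over all tested genes.

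**Figure D2:**
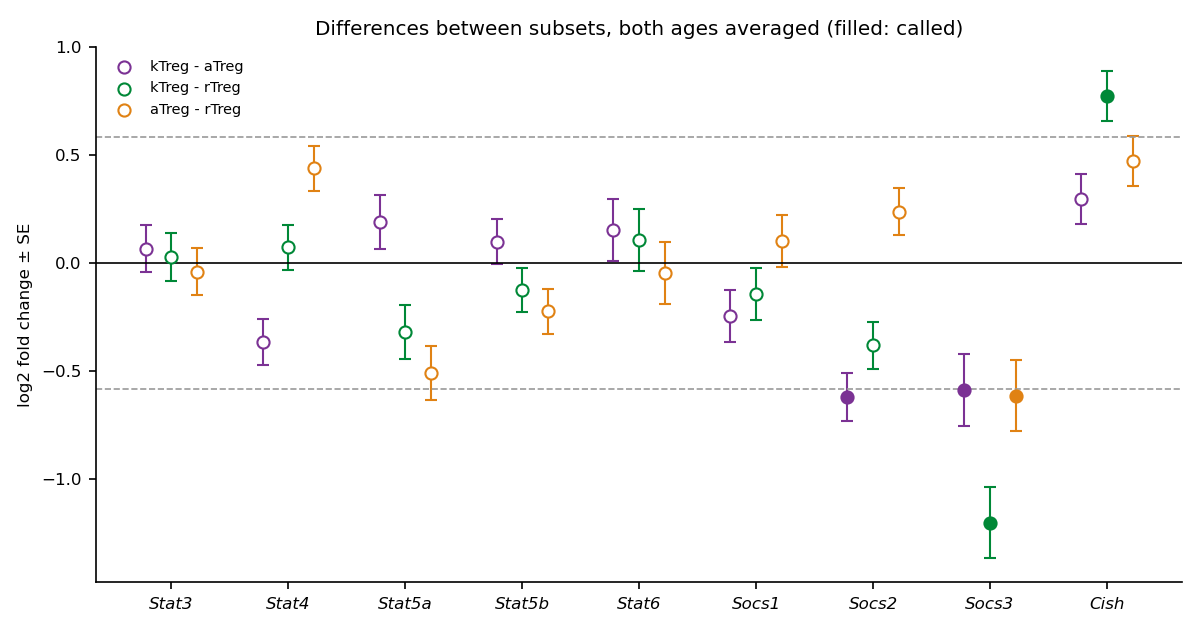
Log2 fold change ± SE (vertical axis) of each gene between subsets, ages averaged, 8 libraries a side. Filled points were called and the dashed lines mark the fold threshold of 1.5. *Socs3* lies at -1.20 and *Cish* at 0.77 between kTreg and rTreg cells, and the STAT genes lie within the dashed lines.

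*Cish* encodes CIS, an inhibitor induced by STAT5 that binds phosphorylated receptor chains such as that of IL-2. In young mice, *Cish* stood at 7281, 5789, 6134 and 6387 in rTreg cells, at 7985, 7672, 5926 and 6326 in aTreg cells and at 9707, 8838, 7698 and 5132 in kTreg cells. In old mice it stood at 4707, 5214, 4689 and 5020.3 in rTreg cells, at 11213, 6627, 9294 and 8308 in aTreg cells and at 11372, 13460.3, 11253 and 11816 in kTreg cells. All 4 old kTreg libraries lay above every other library of the 24, and the 4 old rTreg libraries were, together with replicate 4 of the young kTreg cells at 5132, the lowest 5 of the 24. Over both ages *Cish* was higher in kTreg than in rTreg cells, 0.77 ± 0.12 (SE), adjusted p = 3.41e-05, in 7 of 8 mice. The exception was young mouse 4. Between kTreg and aTreg cells the difference was 0.30 ± 0.12 (SE), adjusted p = 0.1, and between aTreg and rTreg cells 0.47 ± 0.12 (SE), adjusted p = 0.00896, which stayed below the fold threshold. In the order of group means, old kTreg cells with 11975 ± 1019 (SD, n = 4) came first and old rTreg cells with 4908 ± 254 last, and the 4 groups between them were neighbours whose mean ± SD ranges met.

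The start region of *Cish* is shown because it carries the sequence that STAT dimers are known to bind. A search for TTC and GAA with any 3 bases between them, a pattern that reads the same on both strands, in the RefSeq promoter windows of GRCm38.p6 (250 bases before and 50 after a start) found matches for *Cish* and *Socs3* among the 8 genes that have a window, which are all but *Socs2*. Of the 32851 windows of this length, 8.3% held at least 1 match and 0.457% held 2 or more, as that of *Cish* did. Both matches of *Cish* lie directly after its start, at chr9:107296659-107296667 and chr9:107296670-107296678, and that of *Socs3* lies at chr11:117969512-117969520, with its first base at position -154 from the start used, where -1 is the base before the start. Shown are 30 bases of each, 5′ to 3′ on the gene's strand, with the matches in capitals, for *Cish* from chr9:107296654-107296683 on the plus strand and for *Socs3* from chr11:117969496-117969525 on the minus strand.
Cish: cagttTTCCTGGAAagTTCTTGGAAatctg
Socs3: cagccTTCTTAGAAgggaggggggggaaag
A match of these letters is a description of the window and does not show that a STAT protein is bound there.

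*Socs2* encodes another STAT5-induced inhibitor, best known for restraining growth hormone signaling. In young mice it was at 2512, 1790.1, 2347 and 1967 in rTreg cells, at 2002, 1827, 1835 and 1923 in aTreg cells and at 1269.7, 1012, 1319 and 1271 in kTreg cells. In old mice it was at 1646, 1255, 1191 and 1080 in rTreg cells, at 2314, 2137, 1650.3 and 1962 in aTreg cells and at 1564, 1264, 1019.6 and 1532 in kTreg cells. The young kTreg libraries, and those of old rTreg and old kTreg cells, were low, and the gene was lower in kTreg than in aTreg cells in 8 of 8 mice with no overlap between the 8 libraries of each subset. The log2 difference was -0.62 ± 0.11 (SE), adjusted p = 6.53e-04, close to the fold threshold, which it missed without replicate 2 of the young kTreg, replicate 1 of the old aTreg or replicate 3 of the old kTreg cells, at -0.58 to -0.56. Against rTreg cells it was -0.38 ± 0.11 (SE), adjusted p = 0.0141, below the fold threshold. The ages differed in this, and the difference between kTreg and rTreg cells was -0.82 ± 0.15 (SE) in young and 0.05 ± 0.15 in old mice. The group means formed 2 sets, young rTreg, old aTreg and young aTreg cells between 1897 and 2154 and the other 3 groups between 1218 and 1345, and the lowest group of the former and the highest of the latter were the only neighbours whose mean ± SD ranges did not meet. The ratio of *Cish* to *Socs2* values was 3.00 ± 0.303 (SD, n = 4) in young rTreg cells, 3.68 ± 0.49 in young aTreg cells, 6.56 ± 2.065 in young kTreg cells, 3.9 ± 0.755 in old rTreg cells, 4.45 ± 1.07 in old aTreg cells and 9.17 ± 1.95 in old kTreg cells.

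*Socs3* encodes the inhibitor of gp130 receptors and is a classical STAT3 target. It stood in young mice at 3516, 4842, 2509 and 4589 in rTreg cells, at 3017, 4998, 3007 and 4738 in aTreg cells and at 2209.9, 2138, 1630.2 and 1789.9 in kTreg cells. In old mice it lay at 8769, 7061, 5447 and 8399 in rTreg cells, at 3329.9, 1967, 3362 and 3907 in aTreg cells and at 2892, 2426, 2251 and 3262 in kTreg cells. All 4 old rTreg libraries lay above the other 20, and the 4 young kTreg libraries lay below all others except replicate 2 of the old aTreg cells, which at 1967 fell within their range. *Socs3* was lower in kTreg than in rTreg cells in 8 of 8 mice, -1.20 ± 0.16 (SE), adjusted p = 1.17e-05. The difference between kTreg and aTreg cells was -0.59 ± 0.16 (SE), adjusted p = 0.021, lower in 7 of 8 mice, and between aTreg and rTreg cells -0.61 ± 0.16 (SE), adjusted p = 0.0171, lower in 5 of 8 mice. Both lay close to the fold threshold, and both missed the adjusted p in a model with no age term, at 0.113 and 0.111. The former was lost without replicate 2 or 4 of the young aTreg cells, replicate 3 or 4 of the young kTreg cells, replicate 1, 3 or 4 of the old aTreg cells or replicate 2 or 3 of the old kTreg cells, with log2 differences of -0.57 to -0.52. The latter was lost without replicate 2 or 4 of the young rTreg cells, replicate 1 or 3 of the young aTreg cells, replicate 1 or 4 of the old rTreg cells or replicate 2 of the old aTreg cells, with -0.58 to -0.51. Within ages, aTreg cells differed from rTreg cells by 0.03 ± 0.23 (SE) on the log2 scale in young and by -1.26 ± 0.23 in old mice. The kTreg cells differed from aTreg cells by -0.99 ± 0.23 in young mice. In old mice they differed by -0.18 ± 0.23, and the libraries of these 2 subsets overlapped. The age interaction of this difference was not called. The ratio of *Socs3* to *Cish* values, 2 inhibitors of different receptors, was 1.51 ± 0.314 (SD, n = 4) in old rTreg cells and between 0.228 and 0.612 on average in the other 5 groups.

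*Socs1*, whose product blocks JAK kinases of the interferon and gamma chain receptors and is required in Treg cells to keep them stable, was listed in young mice at 2692, 2616, 2927 and 2352 in rTreg cells, at 2785, 2473, 2282 and 1976 in aTreg cells and at 1719.6, 1720.3, 1403 and 1562 in kTreg cells. In old mice it stood at 2330.1, 1411, 1532 and 1896 in rTreg cells, at 2618, 1778, 2258 and 2518 in aTreg cells and at 2630.1, 1697, 2485 and 2912 in kTreg cells. The 4 young kTreg libraries lay below all libraries of young rTreg and young aTreg cells, whereas in old mice the subsets overlapped. Averaged over ages, no subset difference was called, with -0.25 ± 0.12 (SE), adjusted p = 0.209 against aTreg and -0.14 ± 0.12 (SE), adjusted p = 0.431 against rTreg cells. Within young mice the log2 differences of kTreg cells were -0.56 ± 0.17 (SE) and -0.73 ± 0.17, lower in 4 of 4 mice each, and within old mice 0.07 ± 0.17 and 0.44 ± 0.17.

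*Stat4*, the factor activated by IL-12, was at 2653, 2910.1, 2822 and 3612 in rTreg cells, at 3318, 4004, 3171 and 4028 in aTreg cells and at 2749, 2889, 2863 and 1737 in kTreg cells in young mice. In old mice it was at 2561, 2931, 2507 and 3042 in rTreg cells, at 4095, 3648, 4804 and 4199.5 in aTreg cells and at 3759.7, 3139, 3479 and 4168 in kTreg cells. aTreg cells were higher than rTreg cells in 8 of 8 mice and higher than kTreg cells in 8 of 8 mice, and the log2 differences were 0.44 ± 0.11 (SE), adjusted p = 0.00802 and, for kTreg against aTreg cells, -0.36 ± 0.11 (SE), adjusted p = 0.0252. Both passed the adjusted p and missed the fold threshold, so neither was called. The lowest value, 1737, was that of young kTreg replicate 4, the library with 4913 genes at 0.

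*Stat5a* and *Stat5b* encode 2 closely similar proteins from neighbouring genes on chromosome 11, *Stat5a* at chr11:100750177-100776065 on the plus strand and *Stat5b* at chr11:100671556-100741589 on the minus strand (GRCm39). Their coding sequences are near-identical over long stretches, and reads from these may have been dropped or placed at either gene, so the split between them is uncertain. *Stat5a* stood in young mice at 2764, 3039, 2601 and 3523 in rTreg cells, at 2636, 3419, 2468 and 2416 in aTreg cells and at 2470.2, 2665, 1922 and 2059 in kTreg cells. In old mice it was at 3234, 3072, 2907 and 4407 in rTreg cells, at 1976, 1214, 2005 and 2268 in aTreg cells and at 3172, 2814, 2408 and 3008 in kTreg cells. The old aTreg libraries were low, and none of them overlapped with old rTreg or old kTreg cells. Averaged over ages, aTreg cells were below rTreg cells in 7 of 8 mice, -0.51 ± 0.12 (SE), adjusted p = 0.00959, past the adjusted p but under the fold threshold. *Stat5b* ranged from 4878 to 5849.7 in young rTreg, 4303 to 6425 in young aTreg and 3371 to 5520.4 in young kTreg cells. In old mice its ranges were 4873 to 6266, 3281 to 4546 and 4731 to 5107 in rTreg, aTreg and kTreg cells. The groups overlapped widely except that the old aTreg libraries lay below the other old ones. In every library *Stat5b* exceeded *Stat5a*, with a ratio of values from 1.42 to 2.87 and group means between 1.58 ± 0.109 (SD, n = 4) in old rTreg cells and 2.225 ± 0.349 in old aTreg cells.

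*Stat3*, the factor downstream of IL-6 and IL-10, and *Stat6*, the factor downstream of IL-4, were called in no comparison, nor was *Stat5b*. *Stat3*, which overlaps the end of *Stat5a* on the opposite strand, ranged from 5947 to 7886 in young rTreg, 6219.5 to 8829.7 in young aTreg and 6525 to 7199.9 in young kTreg cells. Old rTreg, aTreg and kTreg cells had ranges of 5566 to 10256, 6012 to 8492 and 8265 to 8826. Old kTreg cells were tightly grouped, with a coefficient of variation of 3.02%, and old rTreg cells spread widely, with 24.3%. *Stat6*, which overlaps *Nab2* on the opposite strand, ranged from 4968 to 9092, 5532 to 9618 and 6123 to 8788 in young rTreg, aTreg and kTreg cells. In the old subsets, in the same order, it ranged from 5312 to 8419, 4154 to 7239 and 7538 to 8238. For both genes, as for *Stat4*, *Stat5a*, *Stat5b* and *Socs1*, all neighbours in the order of the 6 group means had mean ± SD ranges that met. The cDNA kit keeps no record of strand, so reads of overlapping genes on opposite strands cannot be told apart where their exons coincide.

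The second question was whether age changes these genes within a subset, with 4 old against 4 young mice. In rTreg cells 3 of 9 genes were called, *Socs3* higher and *Socs1* and *Socs2* lower in old mice, where 5.83% of all genes were called. In aTreg cells 0 of 9 were called against 2.71% of all genes, with 2 of 9 at an unadjusted p under 0.05, *Stat5a* and *Stat5b*, by limma and 0 called by edgeR and by DESeq2. In kTreg cells 0 of 9 were called against 1.26%, with 4 of 9 at an unadjusted p under 0.05, *Stat3*, *Stat4*, *Socs1* and *Cish*, by limma, 0 called by edgeR and 2, *Socs1* and *Cish*, by DESeq2. All 9 log2 differences in kTreg cells were above 0, with a median of 0.34, where the median of all genes was 0.12. This rested in part on replicate 4 of the young kTreg cells, the library with the most genes at 0. Without it *Stat5b* stood at -0.095.

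**Figure D3:**
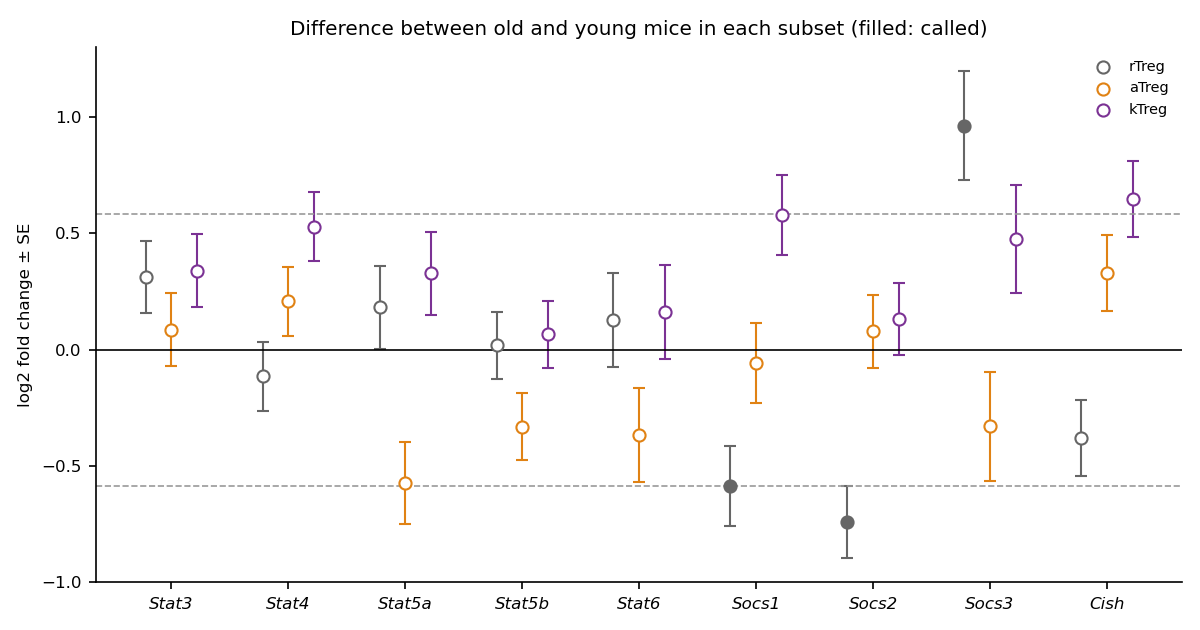
Log2 fold change ± SE (vertical axis) of each gene between 4 old and 4 young mice in rTreg (grey), aTreg (orange) and kTreg (purple) cells. Filled points were called and the dashed lines mark the fold threshold of 1.5. In rTreg cells *Socs3* lies at 0.96 and *Socs2* at -0.74, and in kTreg cells all 9 points lie above 0, *Stat5b* nearest to it at 0.07.

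In old rTreg cells *Socs3* was higher, 0.96 ± 0.23 (SE), adjusted p = 0.0138, with 7419 ± 1506 (SD, n = 4) against 3864 ± 1071 normalized reads. *Socs2* was lower, -0.74 ± 0.15 (SE), adjusted p = 0.00477, and so was *Socs1*, -0.59 ± 0.17 (SE), adjusted p = 0.0409. *Cish* stood at -0.38 ± 0.16 (SE), adjusted p = 0.173 and was not called. For these 4 inhibitors the old and young rTreg libraries did not overlap, 4 of 9 genes, where 11.7% of all tested genes did not overlap between these groups. The call of *Socs3* was lost without replicate 3 of the young rTreg cells, at a log2 difference of 0.77 and adjusted p = 0.076. It was also lost without all libraries of young mouse 3 or of old mouse 1, with adjusted p up to 0.0848. The call of *Socs1* was weak and was lost without any of 10 libraries, namely each of the 4 young rTreg replicates, replicates 2, 3 and 4 of the old rTreg cells and replicate 3 of the young aTreg, old aTreg and old kTreg cells, with log2 differences of -0.64 to -0.48 and adjusted p of 0.0501 to 0.137. With edgeR and DESeq2 *Socs1* passed the adjusted p but missed the fold threshold. The call of *Socs2* held without each of the 24 libraries in turn. With only the 8 rTreg libraries in the model, none of the 3 was called, at adjusted p = 0.0524 for *Socs2*, 0.0611 for *Socs3* and 0.105 for *Socs1*.

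The sum of macrophage and monocyte markers was higher in the old than in the young rTreg libraries through 1 of the 5 genes, *Lyz2*, at 9381 to 25153 normalized reads against 514.7 to 6548. *Csf1r*, *Cd68*, *Adgre1* and *Cd14* overlapped between these groups and stayed at 940.5 or less. The sum of 5 NK cell markers also did not overlap, at 4622 to 7877 in old and 809 to 2373 in young rTreg cells. *Nkg7*, which T cells can express too, made up most of it, at 3865 to 6617 against 562.1 to 1851, and *Ncr1*, *Klrb1c* and *Eomes* did not overlap either, while *Klre1* did. Among the old rTreg libraries, replicate 3 had the highest macrophage and monocyte marker sum, 26208, and the lowest *Socs3* value, 5447. Replicate 4 had a marker sum of 10139.7 and a *Socs3* value of 8399. Going the other way, replicate 1 had a marker sum of 17555 and the highest *Socs3* value of these libraries, 8769. Replicate 2 had the lowest marker sum of these libraries, 10076, and a *Socs3* value of 7061. Young kTreg replicate 2, with a marker sum of 19727, had a *Socs3* value of 2138, within the range of the other young kTreg libraries up to 2209.9. The markers high in that library were other ones in part, with *Csf1r* at 7542 and *Adgre1* at 2486. The sum of 5 neutrophil markers in the old rTreg libraries was 48.1, 6598, 9837 and 222 in replicates 1 to 4. The part of these cells in the differences of *Socs3*, *Socs1* and *Socs2* was not tested.

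**Figure D4:**
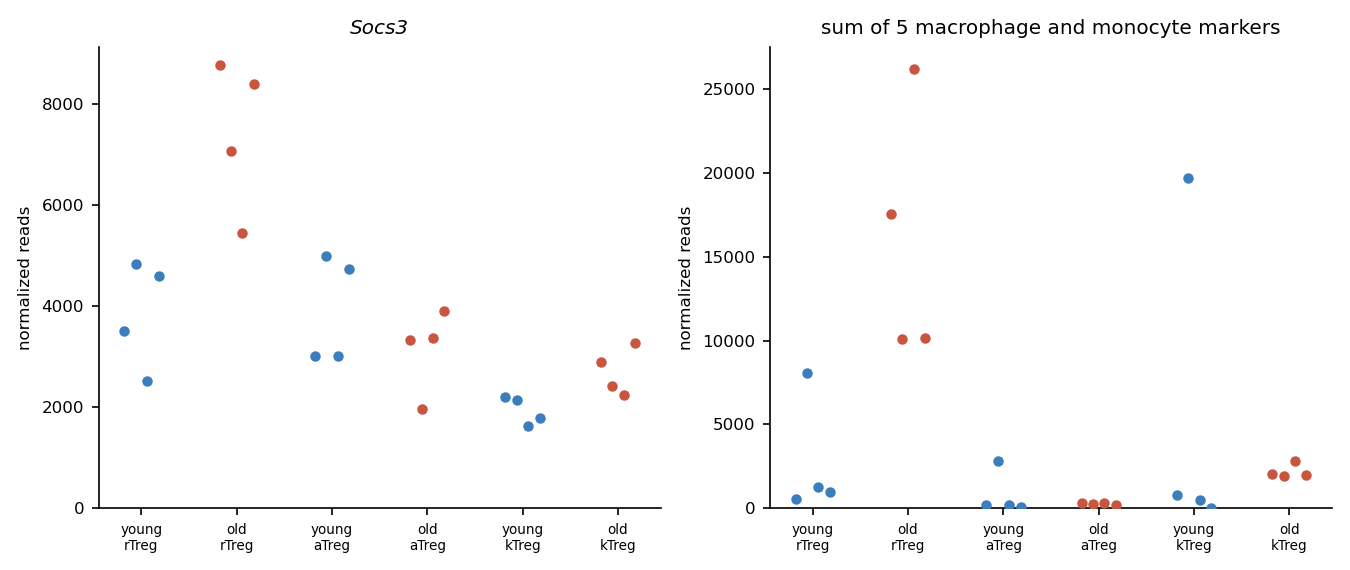
Normalized reads (vertical axes, from 0) of *Socs3* (left) and of the sum of *Lyz2*, *Csf1r*, *Cd68*, *Adgre1* and *Cd14* (right) in each library, blue for young and red for old mice. Old rTreg libraries are high on both sides, on the right through *Lyz2*. The library with the highest marker sum, 26208, has the lowest *Socs3* value of its group, 5447. Replicate 1 of that group, with a marker sum of 17555, has its highest *Socs3* value, 8769.

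In kTreg cells *Cish* was at 11975 ± 1019 (SD, n = 4) in old and 7843 ± 1986 in young mice, 0.65 ± 0.16 (SE), adjusted p = 0.0507. This missed the threshold by a small margin, and with the mouse as a replicate block it was called, at adjusted p = 0.0498. It was also called without replicate 1 or 2 of the young kTreg cells, replicate 3 of the old rTreg cells or replicate 1 or 2 of the old aTreg cells, with log2 differences of 0.65 to 0.76. *Socs1* stood at 0.58 ± 0.17 (SE), adjusted p = 0.099, and at 0.74 and adjusted p = 0.0357 without replicate 2 of the old kTreg cells. *Stat4* stood at 0.53 ± 0.15 (SE), adjusted p = 0.0816, and at 0.35 without replicate 4 of the young kTreg cells, the library with 4913 genes at 0, without which *Cish* stood at 0.46. The old and young kTreg libraries did not overlap for *Stat3*, *Stat4*, *Socs3* and *Cish*, 4 of 9 genes, all higher in old mice, against 10.5% of all genes that did not overlap in either direction.

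In aTreg cells *Stat5a* had the largest age difference of the 9, -0.57 ± 0.18 (SE), adjusted p = 0.0888, and was the 1 gene of 9 whose old and young libraries did not overlap, where 13.4% of all genes did not. It was called without replicate 4 of the old aTreg cells, at -0.68, and fell to -0.38 without replicate 2, the library with low *Foxp3*. *Stat5b* stood at -0.33 ± 0.15 (SE), adjusted p = 0.324, and at -0.21 without replicate 2 of the young aTreg cells. Replicate 2 of the old aTreg cells had the lowest value of its group for 8 of the 9 genes.

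The third question was whether the subset differences depend on age, tested as the interaction in the same fit. For kTreg against rTreg cells 3 of 9 genes were called, all with a higher value of this difference in old than in young mice, where 3.02% of all genes were called. These were *Socs1* with 1.16 ± 0.24 (SE), adjusted p = 0.00885, *Cish* with 1.03 ± 0.23 (SE), adjusted p = 0.015 and *Socs2* with 0.87 ± 0.22 (SE), adjusted p = 0.0304. The difference of *Cish* between kTreg and rTreg cells was 0.26 ± 0.16 (SE) in young and 1.28 ± 0.16 in old mice. That of *Socs1* was -0.73 ± 0.17 and 0.44 ± 0.17, with opposite signs. The median interaction over all genes was 0.21, and over the 9 genes 0.15. The call of *Socs2* was lost without replicate 1 or 3 of the young rTreg cells, replicate 2 of the young kTreg cells, replicate 4 of the old rTreg cells or replicate 1 or 4 of the old kTreg cells, with log2 values of 0.78 to 0.83, and with only the 2 subsets in the model, at adjusted p = 0.0945. The calls of *Cish* and *Socs1* held without each library in turn, but both were lost without the 3 libraries of young mouse 3, and that of *Cish* also without those of old mouse 4, with adjusted p up to 0.0616 for *Cish* and of 0.073 for *Socs1*.

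For aTreg against rTreg cells *Socs3* was called, -1.29 ± 0.33 (SE), adjusted p = 0.0483, 1 of 9 against 1.56% of all genes. It lay just within the threshold and was lost without any of 18 of the 24 libraries, with log2 values of -1.39 to -1.08 and adjusted p of 0.0538 to 0.134. The 6 libraries without which it stayed called were replicate 2 of the young rTreg cells, replicates 1 and 3 of the young aTreg cells, replicate 4 of the young kTreg cells, replicate 3 of the old rTreg cells and replicate 4 of the old aTreg cells. *Socs2* stood at 0.82 ± 0.22 (SE), adjusted p = 0.0612, and was called with the replicate block at adjusted p = 0.0401 and without replicate 2 of the young rTreg, replicate 4 of the young kTreg, replicate 1 of the old rTreg or replicate 3 of the old aTreg cells, at 0.82 to 0.94. *Cish* stood at 0.71 ± 0.23 (SE), adjusted p = 0.129 and was called without young kTreg replicate 4, at adjusted p = 0.0359. For kTreg against aTreg cells 0 of 9 genes were called, where 0.156% of all genes were, with 3 of 9 at an unadjusted p under 0.05 by limma and 0 called by edgeR and by DESeq2. These 3 were *Stat5a* with 0.90 ± 0.25 (SE), adjusted p = 0.229, *Socs1* with 0.64 ± 0.24 (SE), adjusted p = 0.402 and *Socs3* with 0.81 ± 0.33 (SE), adjusted p = 0.446.

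Within an age, the count of genes whose 4 libraries of each subset did not overlap was read beside the same count over all genes. In young mice 4 of 9 genes did not overlap between kTreg and aTreg cells, *Stat4*, *Socs1*, *Socs2* and *Socs3*, all lower in kTreg cells, against 14.7% of all genes. Between kTreg and rTreg cells 3 of 9 did not overlap, *Socs1*, *Socs2* and *Socs3*, again all lower in kTreg cells, against 21.9%. Between aTreg and rTreg cells this held for 0 of 9 genes against 13.5%. In old mice 5 of 9 did not overlap between kTreg and aTreg cells, with *Stat5a*, *Stat5b*, *Stat6* and *Cish* higher and *Socs2* lower in kTreg cells, against 21.2%. Between kTreg and rTreg cells *Stat4* and *Cish* were higher and *Socs3* lower, 3 of 9 against 16.6%, and between aTreg and rTreg cells *Stat4*, *Socs2* and *Cish* were higher and *Stat5a*, *Stat5b* and *Socs3* lower, 6 of 9 against 15.4%. The young and old sets share no libraries.

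The other genes of the pathway were taken from 11 lists with 77 genes, of which 74 were tested. Between kTreg and rTreg cells 23 were higher and 6 lower, between kTreg and aTreg cells 13 and 7, and between aTreg and rTreg cells 13 and 4. These are 39.19%, 27.03% and 22.97% of the 74, where 15.5%, 7.39% and 8.01% of all genes were called. The median log2 difference over the 74 genes was 0.21, 0.09 and 0.16, beside -0.01, -0.08 and 0.06 over all tested genes. The lists were written by hand with results of these data known, and they overlap in part. The counts of single lists below are to be read beside the same shares of all genes.

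Of the 4 JAK kinases, *Tyk2*, the kinase of interferon and IL-12 receptors, rose in kTreg cells against both other subsets, by 1.00 ± 0.15 (SE) against rTreg cells (adjusted p = 2.64e-05) and 0.71 ± 0.15 against aTreg cells (adjusted p = 0.0024) on the log2 scale. *Jak2* was also higher in kTreg than in rTreg cells, 0.72 ± 0.25, adjusted p = 0.0416. *Jak1* and *Jak3* were not called between subsets. Of the 4 other SOCS genes, *Socs5* was higher in kTreg than in rTreg cells, 1.09 ± 0.20, adjusted p = 0.000396, and *Socs4*, *Socs6* and *Socs7* were not called. Of 10 other negative regulators, among them PIAS proteins and phosphatases, *Pias3* was called, at 0.72 ± 0.23 and adjusted p = 0.0271 for kTreg against rTreg cells.

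Of 20 receptor subunits tested in 3 lists, 8 were called between kTreg and rTreg cells, 2 between kTreg and aTreg cells and 8 between aTreg and rTreg cells. Of all tested genes, 15.5%, 7.39% and 8.01% were called in these comparisons, so the 2 of 20 lie near the share of all genes. Of 8 common gamma chain receptor subunits, 3 were higher and 1 lower in kTreg than in rTreg cells. *Il9r*, the IL-9 receptor, averaged 2048 normalized reads in young and 1618 in old kTreg cells, against 111 to 612 in the other groups, with 3.13 ± 0.27 against rTreg cells (adjusted p = 2.49e-08) and 2.23 ± 0.27 against aTreg cells (adjusted p = 1.33e-05). *Il7r*, the IL-7 receptor, was higher than in rTreg cells in kTreg cells, 1.62 ± 0.20, adjusted p = 4.02e-06, and in aTreg cells, 1.41 ± 0.20, adjusted p = 7.59e-05. *Il15ra* was higher in both by 0.62 ± 0.15, with adjusted p = 0.00438 and 0.00959. *Il4ra*, the IL-4 receptor upstream of STAT6, was lower in both, at -0.72 ± 0.18 in kTreg cells (adjusted p = 0.00452) and at -0.65 ± 0.18 in aTreg cells (adjusted p = 0.0192). *Il2ra*, the high-affinity chain of the IL-2 receptor, was not called between subsets.

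Of 8 gp130 and IL-12 family receptor subunits 6 were tested. *Il12rb1*, a chain shared by the IL-12 and IL-23 receptors, was higher than in rTreg cells in kTreg cells, 1.75 ± 0.16, adjusted p = 5.93e-08, and in aTreg cells, 1.28 ± 0.16, adjusted p = 1.98e-05. *Il6ra* was lower in both, at -1.31 ± 0.12 (adjusted p = 5.05e-08) and -1.08 ± 0.12 (adjusted p = 3.94e-06). *Il23r* was higher in aTreg than in rTreg cells, 5.38 ± 0.97, adjusted p = 0.000729, with group means of 12.1 normalized reads in young and 32.9 in old rTreg cells and 162 and 794 in aTreg cells. Among 6 IL-10 and interferon receptor subunits, *Il10ra* was higher in kTreg cells than in aTreg cells, 1.55 ± 0.24, adjusted p = 0.000179, and than in rTreg cells, 1.439 ± 0.24, adjusted p = 0.000129, and *Ifngr2* was lower than in rTreg cells in kTreg cells, -0.81 ± 0.14, adjusted p = 0.000237, and in aTreg cells, -0.75 ± 0.14, adjusted p = 0.00126.

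Of 15 STAT5 targets, 5 were higher and 3 lower in kTreg than in aTreg cells and 4 higher and 3 lower than in rTreg cells, with a median log2 difference of 0.04 and -0.26. *Bcl2*, an inhibitor of apoptosis, was lower in kTreg cells, at -2.08 ± 0.14 against rTreg cells (adjusted p = 7.97e-10), while *Bcl2l1*, which encodes the related protein BCL-XL, was higher by 1.07 ± 0.10 (adjusted p = 1.11e-07). *Lta*, the cytokine lymphotoxin alpha, was lower, at -1.28 ± 0.14, adjusted p = 4.06e-07, and *Osm* was lower in aTreg than in rTreg cells, at -0.89 ± 0.11, adjusted p = 2.18e-05. Against aTreg cells the differences of *Bcl2*, *Lta* and *Bcl2l1* in kTreg cells were -1.74 ± 0.14, -1.44 ± 0.14 and 0.88 ± 0.10 with adjusted p = 7.48e-08, 3.56e-07 and 8.61e-06.

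Of 11 STAT3 targets 5 were higher and 0 lower in kTreg than in rTreg cells, with a median of 0.74, and likewise 5 and 0 in aTreg cells, with a median of 1.61. *Maf* was higher in kTreg cells by 2.22 ± 0.17 (adjusted p = 4.61e-09), *Il10* by 3.73 ± 0.46 (adjusted p = 3.07e-06) and *Batf* by 1.00 ± 0.15 (adjusted p = 3.11e-05) against rTreg cells. *Socs3* itself, a STAT3 target that the list leaves out because it is described above, was lower in the same comparison. Against aTreg cells 2 were higher and 3 lower in kTreg cells, among them *Batf*, 0.63 ± 0.15 (adjusted p = 0.00742), *Il21*, -3.28 ± 0.64 (adjusted p = 0.00149), and *Ccr6*, -0.87 ± 0.24 (adjusted p = 0.0196). *Il21* was low, with means of 18.6 ± 30 (SD) normalized reads in young kTreg and 255 in young aTreg cells. In old mice its means were 184 in kTreg and 390.5 in aTreg cells. In aTreg against rTreg cells *Maf* was at 1.61 ± 0.17 (adjusted p = 2.48e-06) and *Ccr6* at 1.986 ± 0.24 (adjusted p = 1.08e-05).

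Of 8 STAT4 targets 3 were higher and 0 lower than in rTreg cells in both kTreg and aTreg cells. These were *Tbx21*, which encodes T-BET, with 1.08 ± 0.20 in kTreg (adjusted p = 0.000363) and 1.51 ± 0.20 in aTreg cells (adjusted p = 2.84e-05), *Il18r1* with 1.37 ± 0.23 (adjusted p = 0.000109) and 1.46 ± 0.23 (adjusted p = 0.000162), and *Il18rap* with 2.15 ± 0.22 (adjusted p = 2.71e-07) and 1.19 ± 0.22 (adjusted p = 0.000959). *Il18rap* was also higher in kTreg than in aTreg cells, 0.96 ± 0.22, adjusted p = 0.00612. Of 6 STAT6 targets 5 were tested. *Gata3*, the factor of type 2 responses, was higher in kTreg than in rTreg cells by 1.4399 ± 0.10 (adjusted p = 1.95e-09) and than in aTreg cells by 1.16 ± 0.10 (adjusted p = 2.13e-07), and *Pparg* by 3.40 ± 0.46 (adjusted p = 8.92e-06) and 3.07 ± 0.46 (adjusted p = 0.000109), with 471 and 459 normalized reads on average in young and old kTreg cells against 17.6 to 238 elsewhere. *Il4* was low throughout, with group means of 1.4 to 188 normalized reads, and was higher in aTreg than in rTreg cells, 3.15 ± 0.55, adjusted p = 0.000494, and lower in kTreg than in aTreg cells, -1.88 ± 0.55, adjusted p = 0.0269.

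Several of these subset differences, given above as averages over age, depended on age by the interaction test. For kTreg against rTreg cells the interaction, old minus young on the log2 scale, was -1.97 for *Tbx21* (adjusted p = 0.0078), -2.62 for *Il18rap* (adjusted p = 0.0021), -1.85 for *Maf* (adjusted p = 0.00446), -3.58 for *Il10* (adjusted p = 0.0349), -2.24 for *Il9r* (adjusted p = 0.0262) and -1.11 for *Osm* (adjusted p = 0.00868), and 1.97 for *Bcl2* (adjusted p = 0.000596). For each of these genes with a negative value, *Osm* among them, the rTreg mean was higher in old than in young mice. The old rTreg libraries also had more *Lyz2* and more of the NK cell markers described above. The part of other cells in these interactions was not tested. *Tbx21* averaged 713 normalized reads in kTreg against 175 in rTreg cells in young mice, and 974 against 904 in old mice. *Il10* averaged 697 against 18.4 in young and 448 against 144 in old mice. For aTreg against rTreg cells the interaction was called for *Il18rap*, -1.81 (adjusted p = 0.0429), *Il10*, -4.11 (adjusted p = 0.0268), *Il6ra*, -0.97 (adjusted p = 0.0431), and *Il10ra*, -1.90 (adjusted p = 0.0492). The difference of *Il10ra* between these subsets, averaged over age, was not called, at -0.11. Of list genes not named above, the interaction was called with the opposite sign for *Ccnd2*, 0.87 (adjusted p = 0.0103), and *Il2rg*, 0.74 (adjusted p = 0.0472).

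Between old and young mice, 13 of these 74 genes were higher and 4 lower in rTreg cells, 6 and 6 in aTreg cells and 4 and 1 in kTreg cells. These are 22.97%, 16.22% and 6.76% of the 74, where 5.83%, 2.71% and 1.26% of all genes were called. The median log2 differences were 0.25, 0.03 and 0.15, beside -0.08, 0.01 and 0.12 over all tested genes. For the interaction of age with kTreg against rTreg cells 1 was higher and 6 lower, for aTreg against rTreg cells 2 and 4, and for kTreg against aTreg cells 0 were called, by limma, among 74 genes. In this order these are 9.46%, 8.11% and 0% of the 74, where 3.02%, 1.56% and 0.156% of all genes were called.

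The 9 genes did not vary as a unit. Across the 24 libraries, which share age, subset and mouse, the highest Pearson correlations of log2 values between them were 0.783 for *Stat5a* and *Stat5b*, 0.676 for *Stat3* and *Stat6* and 0.664 for *Stat5a* and *Socs3*, and the lowest was -0.509 for *Socs3* and *Cish*. The genes most like each member, among those with a mean value of at least 100, were mostly outside the pathway. For *Cish* they were *Laptm4b* (0.833), *Rbpj* (0.827) and *Plcb3* (0.818), for *Socs3* *Abtb2* (0.88), *Akt2* (0.87) and *Il21r* (0.838), for *Socs2* *Psmd5* (0.844), *Bccip* (0.843) and *Calhm6* (0.842), and for *Socs1* *Smyd3* (0.802), *Tspan13* (0.736) and *Sting1* (0.723). *Stat3* was most like *Pskh1* (0.874), *Supt5* (0.834) and *Cdt1* (0.814), *Stat4* like *Serpinb9* (0.845), *Cd226* (0.843) and *Trgc4* (0.84), and *Stat5a* like *Cry2* (0.859), *Plekhg2* (0.852) and *Birc3* (0.831). *Stat5b* followed *Atp11b* (0.897), *Lasp1* (0.857) and *Tbc1d14* (0.842), and *Stat6* followed *Eif4g2* (0.901), *Usp19* (0.897) and *Map3k11* (0.897). These correlations were picked as the highest of many and are given as a description, with no test.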

How the data were processed

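RNA-seq was performed by the authors on FACS-sorted splenic Treg subsets with the SMART-Seq v4 kit and paired-end sequencing. Per the labels, the authors aligned reads to GRCm39 with HISAT2 2.2.1, processed them with SAMtools 1.13, counted them per gene with HTSeq 1.99.2 and used DESeq2 1.44.0. The annotation release, strand setting and treatment of multiply mapped reads are not given in the sources used here. The deposited values are a normalized signal, made by dividing the reads of a gene by the size factor of its library. Dividing by the step of 1 read gave whole numbers within 0.001 throughout, and these recovered reads were used for edgeR 4.0.16 and DESeq2 1.42.0 as alternatives. Each of the 24 columns was mapped to a sample by its label. Depth was 15045747 to 29521942 reads on listed genes, and PCR copies are not independent molecules.

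Identifiers were matched to GENCODE M39, which held 17353 of 17464 identifiers. Differences were tested on log2(value + 1) by limma 3.58.1 (R 4.3.3, trended prior variance), 6 groups in 1 model, over the 16630 genes that reached 10 in 4 or more libraries. A call needed an adjusted p (Benjamini-Hochberg) under 0.05 and more than a 1.5-fold difference. Fold changes are on the log2(value + 1) scale. Alternatives were a pseudocount of 0.5 or 5, a filter at 50 or none, a replicate block for the mouse, only the groups compared, equal totals, TMM factors, no age term, no adjustment, no fold threshold, and leaving out each library and each mouse. Python 3.11.15 with numpy 2.4.6, pandas 2.3.3 and matplotlib 3.10.9 was used for summaries and plots. The fits were tested on simulated data.

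Each mouse gave all 3 subsets, per the series' design text, so replicate numbers pair the libraries. Deviations from group means correlated within a mouse with medians of 0.115 (aTreg and kTreg), 0.153 (aTreg and rTreg) and 0.0911 (kTreg and rTreg), against -0.0507, -0.0331 and -0.034 between mice. The members and lists were chosen with earlier results of these data known. All 9 members are named. From each pathway list the called genes with the smallest p are named, at most 3 per list and subset comparison, and for each member the 3 genes with the highest Pearson correlation of log2(value + 1) over the 24 libraries, among tested genes with a mean of at least 100 and no predicted or Riken name. Genes named outside this rule (*Il2ra*, *Jak1*, *Jak3* and other list members given as not called, and *Ccnd2* and *Il2rg*) complete a list or the genes called in an interaction. Promoter windows are those of RefSeq on GRCm38.p6, and no protein sequences were used here. Results that need items withheld for evaluation are not reported here.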

Additional observations from a re-analysis of the deposited data

Results flagged for a closer look

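In 2 cases a library stood apart from the other 3 of its group, among 54 groups of 4 tested (9 genes in 6 groups), of which chance would mark about 1 in 20. *Stat4* was at 1737 normalized reads in replicate 4 of the young kTreg cells, where the other 3 lay between 2749 and 2889. This is the library with 4913 genes at 0. *Socs2* was at 1012 in replicate 2 of the young kTreg cells, where the other 3 lay between 1269.7 and 1319, and that library had the macrophage and monocyte marker sum of 19727. The sum of B cell markers in the same library was 6664.

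The age effect differed between subsets, by the interaction test, for 4 genes. Between kTreg and rTreg cells the interaction was 1.16 on the log2 scale for *Socs1*, 1.03 for *Cish* and 0.87 for *Socs2*. For *Socs3*, between aTreg and rTreg cells, it was -1.29. The call of *Socs3* held in only 13 of 42 alternative fits. Those of *Socs2*, *Cish* and *Socs1* held in 31, 40 and 41 of 42.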

How the results depend on the processing

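The 2 calls between kTreg and rTreg cells, *Cish* and *Socs3*, held under every alternative run. Of the 111 counts of called genes over the alternatives that keep all libraries, 94 stayed within 1.5 times the reported count. With age left out, 1 gene was called between kTreg and aTreg cells and 0 between aTreg and rTreg cells, and with no fold threshold 4 between aTreg and rTreg cells. For old against young kTreg cells, 1 gene was called with an unadjusted p, a pseudocount of 5, a filter at 50 and the replicate block, and 2 with DESeq2. With only the groups compared, 0 were called for old against young rTreg cells. An unadjusted p called 3 genes in the interaction of age with kTreg against aTreg cells. In that with aTreg against rTreg cells 4 were called with an unadjusted p, 2 with the replicate block and with DESeq2, and 0 with a pseudocount of 0.5, only the groups compared, TMM factors and edgeR. The replicate block changed no other call. Leaving out a library or a mouse gave 0 to 2 calls between kTreg and aTreg cells, 2 between kTreg and rTreg, 0 to 1 between aTreg and rTreg, 1 to 3, 0 to 1 and 0 to 1 for age in rTreg, aTreg and kTreg cells, and 0, 0 to 3 and 0 to 3 for the interactions of age with kTreg against aTreg, kTreg against rTreg and aTreg against rTreg cells. The cause of these shifts was not tested. With 4 libraries a group, calls near either threshold depend on 1 library.

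No called difference changed sign. Of the values that were not called, 13 changed sign in 54 fits, in those fits by no more than 0.19 from 0. With a library or mouse left out, *Stat3* ranged from -0.0728 to 0.0865 for kTreg against rTreg cells, where it was -0.0008 with edgeR, and from -0.1667 to 0.0336 for aTreg against rTreg cells, and *Stat6* from -0.1674 to 0.0498 for the latter. For age in rTreg cells *Stat5b* ranged from -0.0638 to 0.0733, with -0.0059 for TMM factors and -0.0029 for edgeR, and *Stat6* from -0.0063 to 0.2843. For age in aTreg cells *Socs1* ranged from -0.1432 to 0.0592, and with equal totals *Stat3* was -0.0006 and *Socs2* -0.0082. For age in kTreg cells *Stat5b* ranged from -0.095 to 0.1422. Of the interactions, *Socs2* ranged from -0.0404 to 0.1783 for kTreg against aTreg cells, and for kTreg against rTreg cells *Stat3* from -0.1733 to 0.1451 (-0.0009 with DESeq2), *Stat5b* from -0.1682 to 0.1523 and *Stat6* from -0.1851 to 0.2285.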
